A study of Mus musculus with 10 samples.

Results

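The 40 genes described here mark macrophages, monocytes and dendritic cells, the mononuclear phagocytes of the kidney. They were taken from a fixed list of symbols, matched through the GENCODE M21 annotation to the Ensembl IDs of the deposited tables, and all 40 were found among 46517 IDs. Poly(A) RNA of mouse kidney was sequenced in 10 libraries in a study of APOL1, a human gene whose G1 and G2 alleles raise the risk of kidney disease, expressed according to the series title in podocytes, the epithelial cells of the glomerular filter. Per the genotype labels, 2 libraries carried G1-APOL1, 2 carried G2-APOL1, 3 were wild type (single mutant) and 3 were Control. The labels do not say what "single mutant" stands for, and give no promoter, sex, age or time, nor whether each library came from its own mouse. The p-values therefore speak of the spread among the 10 libraries, which may in part be technical. The 4 libraries with G1 or G2 are called risk-allele libraries below. Human APOL1 reads were not analysed here, and no check of the labels against the transgene was made.

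Mononuclear phagocytes of the kidney include long-lived resident macrophages, partly seeded before birth, and cells that arrive from the blood as monocytes along CCL2 and its receptor CCR2. Macrophages depend on signals through CSF1R, sense antibody-coated particles through Fcγ receptors that work with the adaptor FcRγ, and clear debris and lipid through scavenger receptors. Dendritic cells depend on FLT3 and carry antigen to T cells. The 40 genes were grouped by role into 6 for resident macrophages, 8 for recruited monocytes and macrophages, 4 for scavenging and lipid handling, 7 for dendritic cells, 3 for costimulation and maturation, and 12 shared across mononuclear phagocytes. None of these genes is private to 1 cell type. Cx3cr1 and Mrc1, for example, are also expressed by cells that came from monocytes, and Lgals3 and Fcgr2b by epithelial and endothelial cells. Kidney was measured in bulk, so more cells of a type and more RNA per cell cannot be told apart.

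Library totals ran from 27596391 to 34815153 counts. Levels are counts per 1000000 (CPM) on library sizes scaled by TMM, a normalization that sets aside the genes that differ most, and the median log2 fold change of all 17823 genes tested was 0.00 in risk-allele libraries over Control. The members together took 0.179% and 0.201% of all counts in G1 and 0.169% and 0.123% in G2, against 0.0239% to 0.0308% in wild type (single mutant) and 0.0242% to 0.0380% in Control. The kidney origin was visible in every library, with the loop of Henle gene Umod between 2267 and 4027 CPM. The defining macrophage genes Adgre1, Csf1r and Cx3cr1 were also detected in all 10 libraries.

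The first comparison set the risk-allele libraries against Control. Of the 39 members with enough counts to test, 32 were called higher, 0 were called lower, and 7 were not called at a Benjamini-Hochberg adjusted p under 0.05 in edgeR's quasi-likelihood test. Among all genes tested, 19.3% were called higher and 18% lower in this comparison. Fold changes here and below are log2 values ± SE, and the median member differed by 2.16. In 31 members, all 4 risk-allele libraries were above all 3 Control libraries, which was so for 20.7% of all genes. No member was lower at an unadjusted p under 0.05 either, and DESeq2 and limma-voom called 0 lower. Against wild type (single mutant), 36 members were called higher and 0 lower, with 20.6% of all genes called higher and 19.3% lower, 0 members lower at an unadjusted p under 0.05 and 0 lower in DESeq2 or limma-voom. The median member differed by 2.85 there. The 2 comparisons share the 4 risk-allele libraries. Marco, a scavenger receptor of marginal-zone and alveolar macrophages, was the member not tested, with 0 to 4 counts in each library.

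The roles differed in how many members were called against Control. Called higher were 4 of 6 resident macrophage genes (median log2 fold change 1.05), 7 of 8 recruited monocyte and macrophage genes (median 2.91) and 2 of 3 tested scavenger genes (median 2.68). Called higher were also 4 of 7 dendritic cell genes (median 1.26), 3 of 3 costimulation genes (median 2.12) and 12 of 12 shared genes (median 2.16). These medians describe small lists and were not tested against each other. Not called against Control were Cd163, Timd4, Fcgr4, Gpnmb, Flt3, Xcr1 and Batf3. Against wild type (single mutant), Cd163, Timd4 and Fcgr4 were not called.

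**Figure D1:**
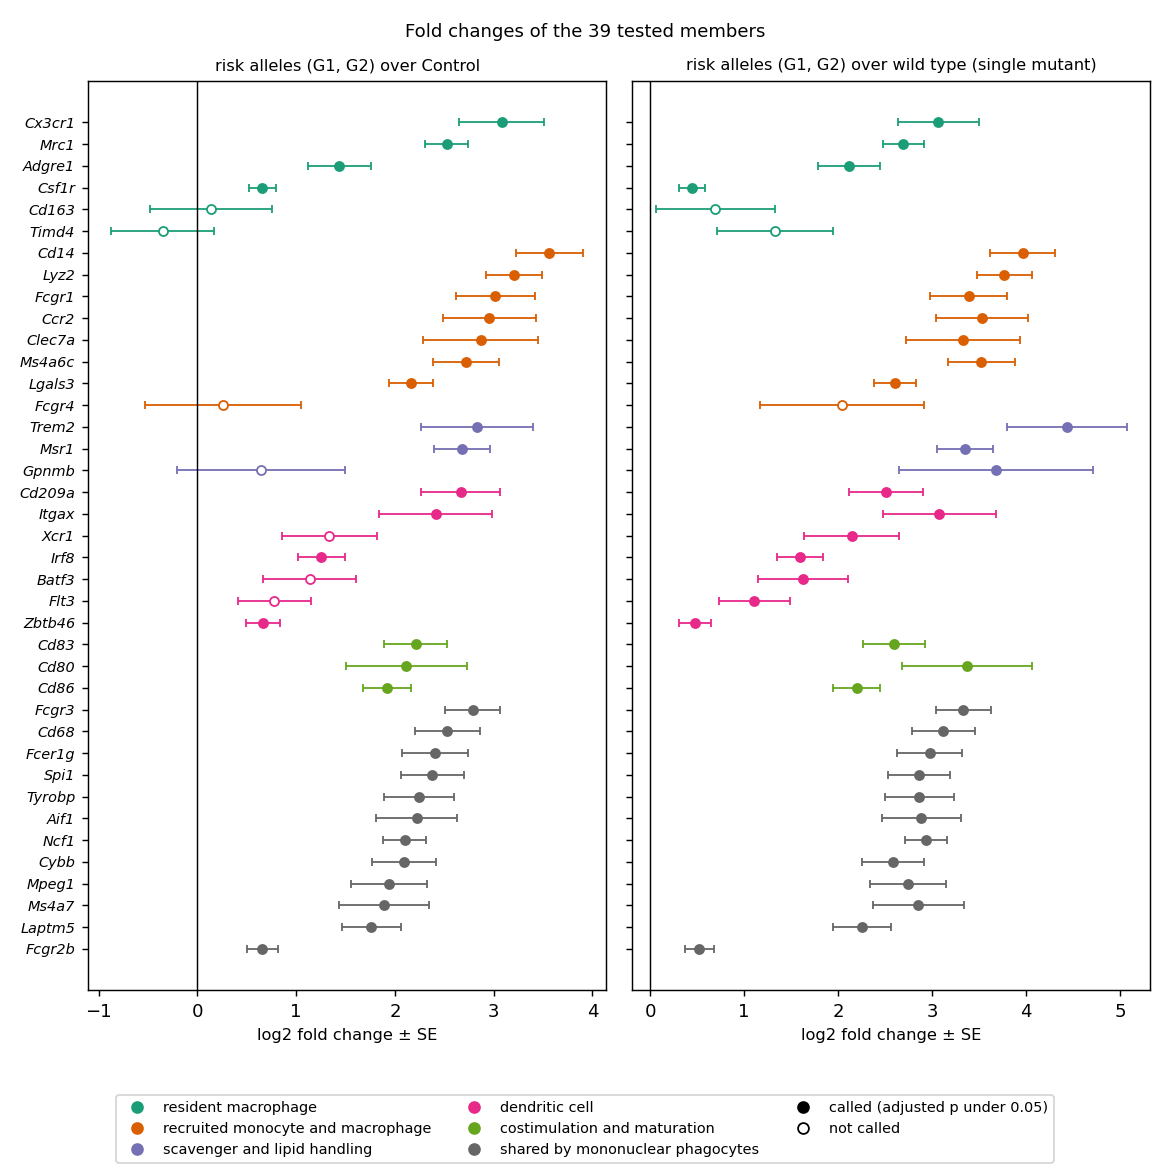
Log2 fold changes (x axis, ± SE) of the 39 tested members in risk-allele libraries over Control (left) and over wild type (single mutant) (right), coloured by role, with filled points for members called at an adjusted p under 0.05. Recruited and shared genes lie mostly above 1.7, while Cd163 and Timd4 lie near 0 against Control.

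Resident macrophage genes split into 4 that rose and 2 that were not called. Adgre1 (ENSMUSG00000004730.13, GRCm38 chromosome 17, 57358691 to 57483527) encodes F4/80, the surface protein by which mouse tissue macrophages are usually recognised. It was at 12.1 and 13.03 CPM in G1 and 17.5 and 11.9 in G2, against 2.77, 2.01 and 4.63 in wild type (single mutant) and 5.93, 5.76 and 3.34 in Control. All 4 risk-allele libraries were above the other 6, with a log2 fold change of 1.44 ± 0.32 (SE) over Control (adjusted p = 0.00746) and 2.11 ± 0.33 over wild type (single mutant) (adjusted p = 0.0012). Cx3cr1 (ENSMUSG00000052336.6, GRCm38 chromosome 9, 119901616 to 120069879), the receptor for the membrane-bound chemokine CX3CL1, was at 36.5 and 20.2 CPM in G1 and 33.6 and 21.3 in G2, against 3.05, 2.12 and 4.80 in wild type (single mutant) and 2.46, 5.22 and 2.19 in Control. It rose by 3.08 ± 0.43 over Control on the log2 scale (adjusted p = 0.000818), and the groups did not overlap. Mrc1 (ENSMUSG00000026712.3, GRCm38 chromosome 2, 14229392 to 14332057), the mannose receptor CD206, was at 34.8 and 44.6 CPM in G1 and 29.4 and 22.3 in G2, against 5.61, 5.70 and 3.58 in wild type (single mutant) and 5.97, 4.60 and 6.13 in Control. It rose by 2.53 ± 0.22 over Control (adjusted p = 9.99e-05), and both G1 libraries were above both G2 libraries.

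Csf1r (ENSMUSG00000024621.14), the receptor for CSF1 and IL-34, was at 92.3 and 96.5 CPM in G1 and 127 and 86.8 in G2, against 68.4, 80.7 and 71.9 in wild type (single mutant) and 66.4, 55.96 and 68.7 in Control. Its fold change was below those of Adgre1, Cx3cr1 and Mrc1, at 0.66 ± 0.14 on the log2 scale over Control (adjusted p = 0.0064) and 0.45 ± 0.14 over wild type (single mutant) (adjusted p = 0.0304). The second call was lost, with an adjusted p of up to 0.104, without G1 replicate 1, G1 replicate 2, G2 replicate 1, wild type (single mutant) replicate 1 or wild type (single mutant) replicate 3. The gene Hmgxb3 on the opposite strand shares 15.12% of the exon bases of Csf1r, and the strand setting of the counting is not given in the sources used here. Hmgxb3 was at 18.6 to 23.1 CPM in risk-allele libraries, against 24.8 to 38.6 CPM in the other 6. The effect of reads in the shared bases on the Csf1r value was not tested.

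Cd163 and Timd4 behaved differently. Cd163 (ENSMUSG00000008845.8, GRCm38 chromosome 6, 124304656 to 124330527), the scavenger receptor for haptoglobin-bound hemoglobin found on perivascular and other resident macrophages, was at 1.44 and 2.02 CPM in G1 and 0.747 and 1.87 in G2, against 0.787, 1.68 and 0.341 in wild type (single mutant) and 1.70, 0.435 and 1.99 in Control. The groups overlapped, with a log2 difference of 0.14 ± 0.62 over Control (adjusted p = 0.882) and 0.69 ± 0.63 over wild type (single mutant) (adjusted p = 0.415). Timd4 (ENSMUSG00000055546.6, GRCm38 chromosome 11, 46810800 to 46844332), the phosphatidylserine receptor TIM-4 of long-lived resident macrophages, was at 0.157 and 0.252 CPM in G1 and 0.260 and 0.299 in G2, against 0.103, 0.110 and 0.0681 in wild type (single mutant) and 0.451, 0.0724 and 0.398 in Control. These levels are a few counts per library, all 4 risk-allele libraries lay above the wild type (single mutant) libraries, and the difference was -0.35 ± 0.52 over Control (adjusted p = 0.627) and 1.33 ± 0.62 over wild type (single mutant) (adjusted p = 0.117). Timd4 was low in Control replicate 2 and in all 3 wild type (single mutant) libraries. 2 further genes of perivascular and long-lived macrophages were not called against Control. They were chosen after their values were seen, from a list in which 15 of 26 tested genes were called higher, and the perivascular gene Mrc1 rose. Folr2, a folate receptor, was at 1.36 to 2.04 CPM in risk-allele libraries, against 1.12 to 3.78 in Control (adjusted p = 0.197). Lyve1, a hyaluronan receptor also found on lymphatic vessels, was at 0.202 to 0.629 CPM in risk-allele libraries, against 0.471 to 2.53 in Control (log2 difference -2.11 ± 0.89, adjusted p = 0.0922). Folr2 was called lower without Control replicate 2 (adjusted p = 0.0253) and Lyve1 under DESeq2, in a fit of only the groups compared and without wild type (single mutant) replicate 2. An adjusted p above 0.05 does not show that these levels were alike.

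**Figure D2:**
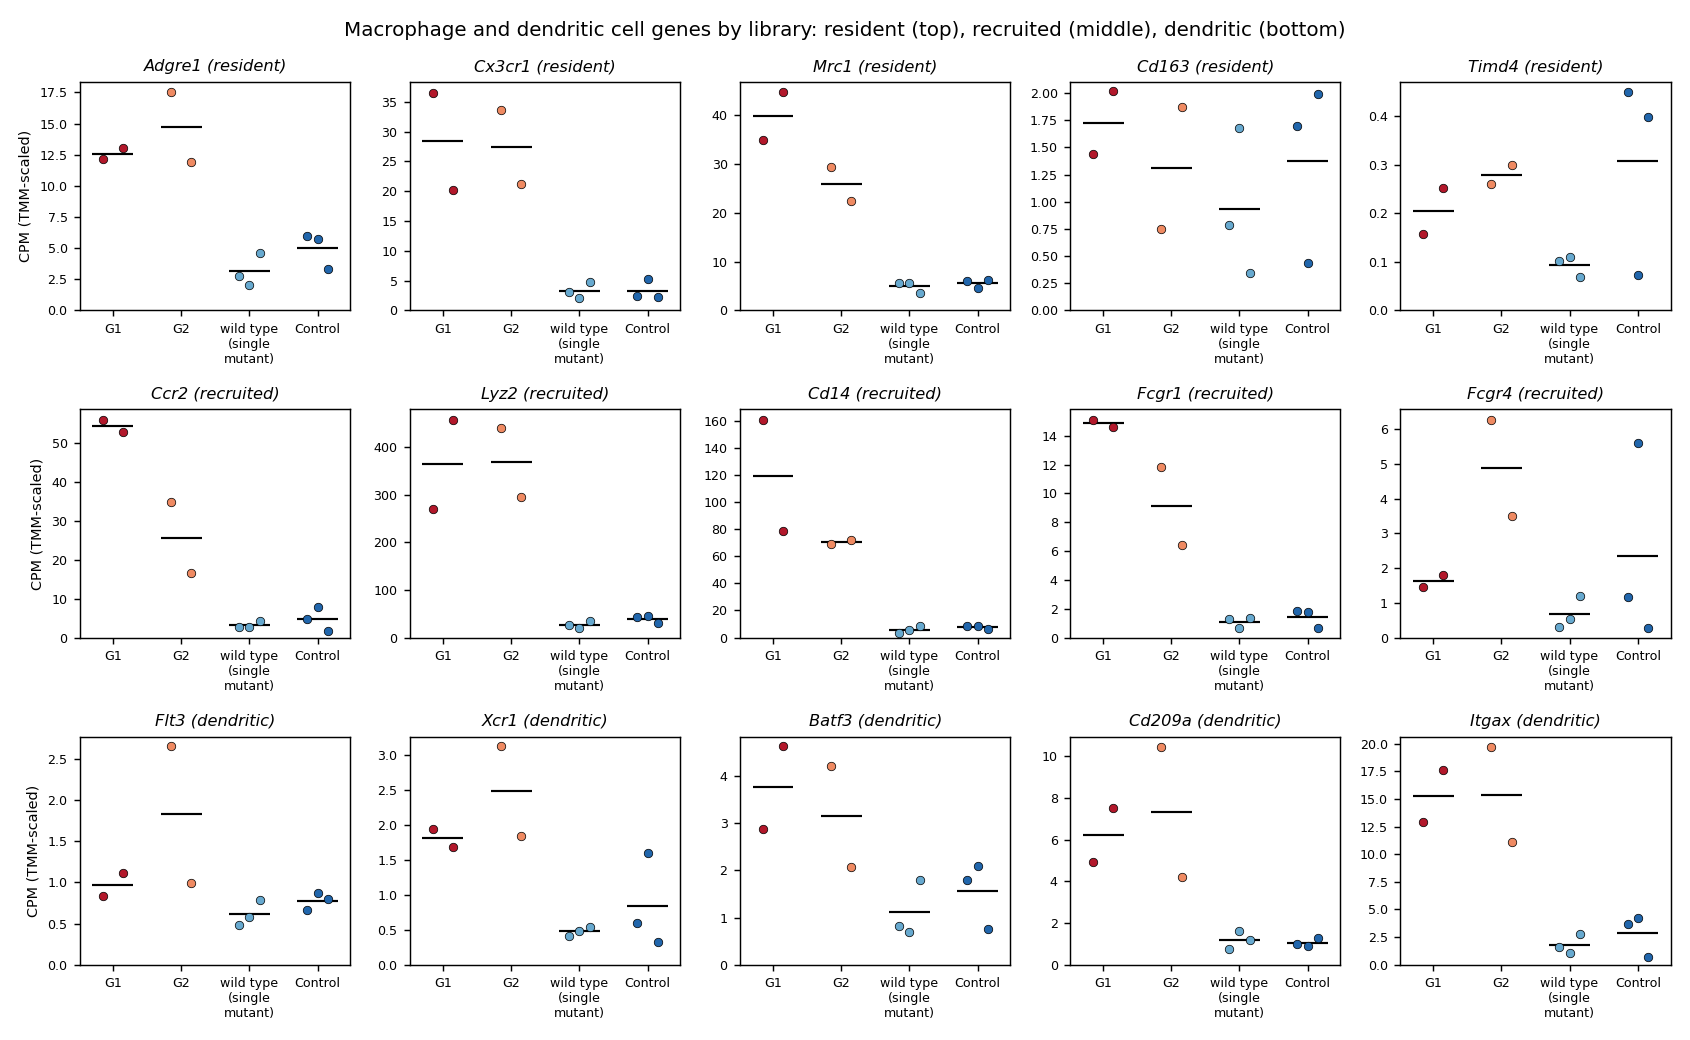
Levels (y axes, TMM-scaled CPM, linear from 0) of 15 members in each library, with 1 point per library and a bar at the group mean, for G1 and G2 (n = 2 each), wild type (single mutant) and Control (n = 3 each). Adgre1, Cx3cr1, Mrc1, Ccr2, Lyz2, Cd14 and Fcgr1 are separated between risk-allele and other libraries, while Cd163, Fcgr4, Flt3 and Batf3 overlap.

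Of the 8 genes of recruited monocytes and macrophages, 7 rose against both Control and wild type (single mutant). Ccr2 (ENSMUSG00000049103.12, GRCm38 chromosome 9, 124101950 to 124113557), the receptor by which monocytes leave the marrow and enter tissue along CCL2, was at 55.8 and 52.6 CPM in G1 and 34.7 and 16.5 in G2, against 2.70, 2.70 and 4.26 in wild type (single mutant) and 4.79, 7.75 and 1.79 in Control. Its log2 fold change was 2.96 ± 0.47 over Control (adjusted p = 0.00159) and 3.53 ± 0.49 over wild type (single mutant) (adjusted p = 0.00071). Lyz2 (ENSMUSG00000069516.7, GRCm38 chromosome 10, 117277331 to 117282321), lysozyme M of myeloid cells, was at 269.8 and 457 CPM in G1 and 441 and 295 in G2, against 25.9, 20.6 and 34.03 in wild type (single mutant) and 42.2, 46.1 and 30.7 in Control. It rose by 3.20 ± 0.28 over Control (adjusted p = 0.00011), with every risk-allele library more than 5 times above every other library. The neighbouring copy Lyz1 was at 0.577 to 9.02 CPM in risk-allele libraries, against 0.181 to 1.03 in the other 6, and reads that fit both genes make each value uncertain.

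Cd14 (ENSMUSG00000051439.6), the co-receptor for bacterial lipopolysaccharide on monocytes, was at 160.5 and 78.5 CPM in G1 and 68.8 and 71.9 in G2, against 3.66, 5.48 and 8.52 in wild type (single mutant) and 8.22, 8.58 and 6.45 in Control. It had the largest fold change over Control of the 39 tested members, 3.56 ± 0.34 on the log2 scale (adjusted p = 0.000146). Lgals3 (ENSMUSG00000050335.15, GRCm38 chromosome 14, 47367751 to 47386160), the lectin galectin-3 of macrophages and injured epithelium, was at 376 and 323 CPM in G1 and 168 and 122 in G2, against 32.1, 35.9 and 43.1 in wild type (single mutant) and 60.8, 55.8 and 34.3 in Control, a log2 fold change of 2.16 ± 0.22 over Control (adjusted p = 0.000197). Clec7a, the β-glucan receptor dectin-1, rose by 2.87 ± 0.59 over Control and was at 9.89 to 16.1 CPM in risk-allele libraries, against 0.398 to 3.08 in Control. Ms4a6c, a four-span membrane protein of monocytes, rose by 2.72 ± 0.33 over Control and was at 5.66 to 11.7 CPM in risk-allele libraries, against 0.716 to 1.70 in Control. The transcript BE692007 on the opposite strand shares 53.07% of the exon bases of Ms4a6c and was at 1.37 to 2.54 CPM in risk-allele libraries, against 0.146 to 0.375 in the other 6, so the value of Ms4a6c is uncertain.

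Genes for clearing debris and lipid were low in the 6 other libraries, with 1 exception. Msr1 (ENSMUSG00000025044.14, GRCm38 chromosome 8, 39581685 to 39642673), the class A scavenger receptor, was at 7.39 and 8.92 CPM in G1 and 6.53 and 5.28 in G2, against 0.582, 0.767 and 0.681 in wild type (single mutant) and 1.53, 1.01 and 0.676 in Control. It rose by 2.68 ± 0.28 over Control (adjusted p = 0.000223), with no overlap. Trem2 (ENSMUSG00000023992.13, GRCm38 chromosome 17, 48346401 to 48354147), a lipid-sensing receptor of macrophages that scavenge lipid and cell debris, was at 12.9 and 8.26 CPM in G1 and 11.6 and 5.83 in G2, against 0.342, 0.329 and 0.647 in wild type (single mutant) and 2.71, 0.579 and 0.716 in Control. It rose by 2.83 ± 0.57 over Control (adjusted p = 0.00477) and by 4.43 ± 0.64 over wild type (single mutant) (adjusted p = 0.00084), and Control replicate 1 was the highest of the other 6 libraries. Gpnmb (ENSMUSG00000029816.9, GRCm38 chromosome 6, 49036546 to 49070929), a glycoprotein of lipid-laden macrophages that is also made by other cells, was at 7.16 and 5.06 CPM in G1 and 5.88 and 3.16 in G2, against 0.274, 0.365 and 0.579 in wild type (single mutant) and 8.85, 0.652 and 0.517 in Control.

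The Control library with the most Gpnmb was above all 4 risk-allele libraries, and Gpnmb was not called over Control (log2 difference 0.65 ± 0.85, adjusted p = 0.581). Over wild type (single mutant) it was called (3.68 ± 1.03, adjusted p = 0.0202), a call lost without wild type (single mutant) replicate 1 or replicate 2. Without Control replicate 1 the log2 difference over Control was 3.15 (adjusted p = 0.00219). Control replicate 1 also held the most Lep, a fat-cell hormone gene, at 14.5 CPM, and its 4 adipose genes summed to 51.4 CPM, between 1.99 and 175 CPM in the other Control libraries. Control replicate 3, which summed to 175 CPM, was at 0.517 CPM for Gpnmb and 0.716 CPM for Trem2. The part of adipose RNA in the Gpnmb and Trem2 values was not tested. Marco was at 1 and 4 counts in G1, 0 and 3 in G2, 1, 2 and 3 in wild type (single mutant) and 1, 0 and 1 in Control. A level of 3 counts corresponds to 0.0862 to 0.109 CPM, so Marco was at or near the limit of detection in all 10 libraries.

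Dendritic cell genes were mixed in their calls over Control, where 4 of 7 were called. All 7 had positive fold changes there, and 6 passed an unadjusted p under 0.05 in edgeR. Over wild type (single mutant), edgeR called 7 of 7 higher. Called higher over Control were Itgax, Cd209a, Irf8 and Zbtb46, while scaling by library totals alone called 7 of 7. Itgax (ENSMUSG00000030789.8, GRCm38 chromosome 7, 128129547 to 128150657), the integrin CD11c of dendritic cells and of many kidney macrophages, was at 12.9 and 17.6 CPM in G1 and 19.7 and 11.1 in G2, against 1.61, 1.02 and 2.79 in wild type (single mutant) and 3.68, 4.24 and 0.676 in Control. It rose by 2.41 ± 0.58 over Control (adjusted p = 0.0109), with no overlap. Cd209a (ENSMUSG00000031494.6, GRCm38 chromosome 8, 3743397 to 3748984), the lectin DC-SIGN of monocyte-derived dendritic cells, was at 4.93 and 7.51 CPM in G1 and 10.5 and 4.19 in G2, against 0.753, 1.61 and 1.19 in wild type (single mutant) and 1.01, 0.905 and 1.27 in Control, a log2 fold change of 2.66 ± 0.40 over Control (adjusted p = 0.0012). Reads that also fit related Cd209 genes make the value uncertain. Irf8, a transcription factor of monocytes and type 1 dendritic cells, rose by 1.26 ± 0.24 over Control and was at 27.5 to 43.03 CPM in risk-allele libraries, against 11.6 to 22.8 in Control. Zbtb46 (ENSMUSG00000027583.12, GRCm38 chromosome 2, 181387762 to 181459426), a transcription factor of classical dendritic cells that endothelium also expresses, was at 14.3 and 11.3 CPM in G1 and 13.9 and 11.4 in G2, against 9.14, 7.34 and 10.9 in wild type (single mutant) and 7.36, 8.55 and 8.20 in Control. Its rise of 0.66 ± 0.17 (adjusted p = 0.0151) was lost without Control replicate 1 or G1 replicate 1, and the call over wild type (single mutant) (adjusted p = 0.0492) was lost under 10 of the 16 other settings tried.

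Flt3, Xcr1 and Batf3 were not called over Control. Flt3 (ENSMUSG00000042817.15, GRCm38 chromosome 5, 147330741 to 147400489), the growth factor receptor on which classical dendritic cells depend, was at 0.839 and 1.11 CPM in G1 and 2.66 and 0.997 in G2, against 0.479, 0.584 and 0.784 in wild type (single mutant) and 0.659, 0.869 and 0.796 in Control. The highest value was in G2 replicate 1, and the other 3 risk-allele libraries overlapped or lay close to Control, with a log2 difference of 0.78 ± 0.37 (adjusted p = 0.129). Xcr1 (ENSMUSG00000060509.4, GRCm38 chromosome 9, 123852315 to 123862029), the chemokine receptor of type 1 dendritic cells, was at 1.94 and 1.69 CPM in G1 and 3.12 and 1.84 in G2, against 0.411, 0.475 and 0.545 in wild type (single mutant) and 0.590, 1.59 and 0.318 in Control. All 4 risk-allele libraries were above all 3 Control libraries, with Control replicate 2 close below, and the log2 difference of 1.34 ± 0.48 missed the threshold (adjusted p = 0.0555), which it passed under 5 of 16 other settings. Batf3 (ENSMUSG00000026630.8, GRCm38 chromosome 1, 191097847 to 191108945), a transcription factor needed by type 1 dendritic cells, was at 2.88 and 4.64 CPM in G1 and 4.22 and 2.07 in G2, against 0.821, 0.694 and 1.81 in wild type (single mutant) and 1.80, 2.10 and 0.756 in Control, with overlapping groups and a log2 difference of 1.14 ± 0.47 over Control (adjusted p = 0.0867). All 3 were called over wild type (single mutant), Xcr1 by 2.14 ± 0.51 (adjusted p = 0.00949), Batf3 by 1.63 ± 0.48 (adjusted p = 0.0253) and Flt3 by 1.11 ± 0.38 (adjusted p = 0.0431). The Flt3 call was lost under 11 and the Batf3 call under 4 of the 16 other settings. That these genes were called over 1 set of 3 libraries and not over the other does not show that the sets differed, and none of them was called between wild type (single mutant) and Control.

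The costimulation genes rose in risk-allele libraries over both Control and wild type (single mutant). Cd86 (ENSMUSG00000022901.12, GRCm38 chromosome 16, 36603869 to 36666081), a ligand of CD28 on T cells, was at 5.09 and 6.22 CPM in G1 and 6.95 and 4.58 in G2, against 1.16, 1.17 and 1.40 in wild type (single mutant) and 1.63, 1.77 and 1.11 in Control. It rose by 1.92 ± 0.24 over Control (adjusted p = 0.000546). Cd83 (ENSMUSG00000015396.3, GRCm38 chromosome 13, 43784775 to 43803132), a surface protein of mature dendritic cells and activated B cells, was at 9.78 and 12.3 CPM in G1 and 19.2 and 9.62 in G2, against 2.19, 2.12 and 1.94 in wild type (single mutant) and 2.53, 3.88 and 1.75 in Control, a rise of 2.21 ± 0.32 (adjusted p = 0.00104). Both genes were higher in all 4 risk-allele libraries than in any of the other 6. Cd80, the second CD28 ligand, was at 0.424 to 1.44 CPM in risk-allele libraries, against 0.0796 to 0.326 in Control. Its rise of 2.12 ± 0.61 (adjusted p = 0.024) was lost without Control replicate 1, Control replicate 3, G1 replicate 2 or G2 replicate 1.

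Fcγ receptors bind the tails of IgG antibodies. The activating receptors signal through the FcRγ chain encoded by Fcer1g, and FcγRIIb, encoded by Fcgr2b, inhibits. Fcer1g (ENSMUSG00000058715.10, GRCm38 chromosome 1, 171229572 to 171234365) was at 26.1 and 30.5 CPM in G1 and 39.6 and 22.6 in G2, against 3.59, 3.80 and 3.92 in wild type (single mutant) and 5.07, 8.58 and 3.10 in Control, and rose by 2.40 ± 0.34 over Control (adjusted p = 0.000824). Fcgr1 (ENSMUSG00000015947.9, GRCm38 chromosome 3, 96282909 to 96293969), the high-affinity receptor CD64, was at 15.1 and 14.6 CPM in G1 and 11.8 and 6.45 in G2, against 1.27, 0.694 and 1.36 in wild type (single mutant) and 1.87, 1.74 and 0.676 in Control. It rose by 3.02 ± 0.40 over Control (adjusted p = 0.000656) and by 3.39 ± 0.41 over wild type (single mutant). Fcgr3 (ENSMUSG00000059498.12, GRCm38 chromosome 1, 171051174 to 171064935), the activating receptor FcγRIII, was at 28.5 and 35.2 CPM in G1 and 27.3 and 16.3 in G2, against 2.16, 2.52 and 3.17 in wild type (single mutant) and 5.03, 3.77 and 2.63 in Control, a rise of 2.79 ± 0.28 over Control (adjusted p = 0.000188). Both activating receptors were separated between the risk-allele and the other 6 libraries.

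Fcgr2b (ENSMUSG00000026656.14, GRCm38 chromosome 1, 170958617 to 170976547), which kidney endothelium also expresses, was at 59.5 and 68.4 CPM in G1 and 58.3 and 42.8 in G2, against 39.9, 39.8 and 38.9 in wild type (single mutant) and 31.8, 45.2 and 31.03 in Control. It rose by 0.66 ± 0.16 over Control (adjusted p = 0.0109), with the lowest G2 library below the highest Control library, and by 0.52 ± 0.16 over wild type (single mutant) (adjusted p = 0.0262), a call lost under 5 leave-out settings, those without G1 replicate 2, G2 replicate 1 or any 1 of the wild type (single mutant) libraries. Within libraries, the ratio of Fcgr3 to Fcgr2b was 0.479 and 0.515 in G1 and 0.469 and 0.380 in G2, against 0.0541, 0.0633 and 0.0814 in wild type (single mutant) and 0.158, 0.0833 and 0.0846 in Control. Every risk-allele library had a ratio above every other library. Fcgr4 (ENSMUSG00000059089.4, GRCm38 chromosome 1, 171018920 to 171029761), the activating receptor FcγRIV, was at 1.47 and 1.81 CPM in G1 and 6.27 and 3.49 in G2, against 0.308, 0.548 and 1.19 in wild type (single mutant) and 1.18, 5.61 and 0.279 in Control. Control replicate 2 overlapped the G2 libraries and lay above both G1 libraries, and Fcgr4 was not called over Control (log2 difference 0.26 ± 0.79, adjusted p = 0.821) or over wild type (single mutant) (2.04 ± 0.87, adjusted p = 0.092). The difference over wild type (single mutant) was called under DESeq2, in a fit of only the groups compared and without Control replicate 2 or 3 (adjusted p down to 0.0144). Without Control replicate 2 the difference over Control was 1.93 (adjusted p = 0.0574). Control replicate 2 also had the most Jchain, an antibody-joining chain of plasma cells, at 125 CPM, and the part of such differences between libraries in the Fcgr4 value was not tested. Fcgr2b, Fcgr3 and Fcgr4 lie in 1 cluster on chromosome 1 and are related in sequence. Reads that fit more than 1 of them make each value uncertain. Antisense transcripts share 2.68% of the exon bases of Fcgr2b and 1.73% of those of Cx3cr1.

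Promoters are shown for the Fcγ receptors Fcgr1, Fcgr3 and Fcgr4 and for Mrc1, Trem2 and Cd163, to show where a binding motif of PU.1 stands, the myeloid transcription factor encoded by the member Spi1. The windows were chosen with their matches known. Of these 6, 5 hold the motif, while Cd163 and called members such as Ccr2, Lyz2, Cx3cr1 and Itgax hold none in theirs. The RefSeq windows of the 250 bases before the annotated start (GRCm38.p6) are Fcgr1 chr3:96293970-96294219 (minus strand), Fcgr3 chr1:171059395-171059644 (minus strand), Fcgr4 chr1:171018676-171018925 (plus strand), Mrc1 chr2:14229164-14229413 (plus strand), Trem2 chr17:48346151-48346400 (plus strand) and Cd163 chr6:124304401-124304650 (plus strand). Each runs 5′ to 3′ on the strand of its gene, and capitals mark GAGGAA, the PU box core, or its reverse complement TTCCTC.
Fcgr1: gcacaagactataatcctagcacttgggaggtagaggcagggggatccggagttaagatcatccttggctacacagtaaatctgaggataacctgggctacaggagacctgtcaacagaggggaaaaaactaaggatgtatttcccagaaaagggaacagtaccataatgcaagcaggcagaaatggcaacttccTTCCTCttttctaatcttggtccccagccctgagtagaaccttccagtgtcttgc
Fcgr3: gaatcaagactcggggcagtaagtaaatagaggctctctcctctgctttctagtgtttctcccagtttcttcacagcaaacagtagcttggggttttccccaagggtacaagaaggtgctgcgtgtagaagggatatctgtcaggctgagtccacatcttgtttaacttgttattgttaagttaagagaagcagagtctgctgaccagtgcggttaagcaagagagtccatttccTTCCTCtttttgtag
Fcgr4: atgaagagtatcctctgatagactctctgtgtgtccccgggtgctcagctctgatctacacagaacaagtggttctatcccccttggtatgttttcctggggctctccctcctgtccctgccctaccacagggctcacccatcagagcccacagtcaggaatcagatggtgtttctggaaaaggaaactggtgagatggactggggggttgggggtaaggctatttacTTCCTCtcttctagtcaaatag
Mrc1: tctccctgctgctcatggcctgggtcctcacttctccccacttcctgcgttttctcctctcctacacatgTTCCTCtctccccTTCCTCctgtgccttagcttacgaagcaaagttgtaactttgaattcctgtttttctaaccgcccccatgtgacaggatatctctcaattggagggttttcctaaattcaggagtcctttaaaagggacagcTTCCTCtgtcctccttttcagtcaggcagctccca
Trem2: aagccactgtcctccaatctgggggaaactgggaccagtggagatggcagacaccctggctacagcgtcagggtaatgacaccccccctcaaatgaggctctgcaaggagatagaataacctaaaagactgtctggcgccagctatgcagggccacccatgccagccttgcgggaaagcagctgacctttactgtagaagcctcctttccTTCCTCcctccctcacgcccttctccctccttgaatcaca
Cd163: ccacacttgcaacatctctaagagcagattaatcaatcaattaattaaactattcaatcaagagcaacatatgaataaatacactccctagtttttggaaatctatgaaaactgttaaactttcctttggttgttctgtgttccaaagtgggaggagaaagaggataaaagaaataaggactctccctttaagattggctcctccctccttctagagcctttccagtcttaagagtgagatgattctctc
The motif begins 55 bases before the start in Fcgr1, 15 in Fcgr3, 22 in Fcgr4 and 40 in Trem2, and stands at 3 places in Mrc1. Of the 40 members, 32 had RefSeq promoters, with 36 windows, since Clec7a, Fcgr3, Irf8 and Ms4a7 have 2 each, which overlap in Clec7a and Fcgr3, and GAGGAA was present on either strand in 13 of these (36.11%), which covered 11 genes. It was present in 23.25% of all 32851 mouse windows of this length. The unrelated TATA box TATAAA, whose letters cannot overlap those of GAGGAA, was present in 4 of the 36 member windows (11.11%) and in 12.37% of all windows. A match is a string of letters and not a bound site, and Fcgr4 carries the motif but was not called.

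The genes shared by mononuclear phagocytes all rose over both Control and wild type (single mutant), 12 of 12. Tyrobp (ENSMUSG00000030579.9, GRCm38 chromosome 7, 30413760 to 30417585), the adaptor DAP12 through which TREM2 signals, was at 35.8 and 43.6 CPM in G1 and 42.9 and 24.7 in G2, against 5.06, 3.62 and 6.40 in wild type (single mutant) and 8.61, 10.5 and 3.98 in Control. It rose by 2.25 ± 0.36 over Control (adjusted p = 0.00157) and by 2.86 ± 0.37 over wild type (single mutant). Spi1 (ENSMUSG00000002111.8, GRCm38 chromosome 2, 91082390 to 91115756), which encodes PU.1, was at 17.9 and 22.1 CPM in G1 and 22.6 and 11.5 in G2, against 2.12, 2.52 and 2.998 in wild type (single mutant) and 3.50, 4.85 and 2.27 in Control, a rise of 2.38 ± 0.32 over Control (adjusted p = 0.000711). The risk-allele libraries were above all others for both genes. Cd68, a lysosomal protein of macrophages, rose by 2.53 ± 0.33 over Control, Mpeg1, the pore-forming perforin-2, by 1.94 ± 0.39, Aif1, the actin-binding protein IBA1, by 2.22 ± 0.41, and Laptm5, a lysosomal membrane protein of blood cells, by 1.76 ± 0.30. Their levels in risk-allele libraries ran from 7.30 to 17.3 CPM for Aif1 to 69.4 to 104 CPM for Mpeg1.

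The phagocyte oxidase makes superoxide from 2 membrane subunits, gp91phox (Cybb) and p22phox (Cyba), and cytosolic partners that include p47phox (Ncf1). Cybb was at 22.5 to 41.2 CPM in risk-allele libraries, against 4.73 to 11.1 in Control, a rise of 2.09 ± 0.32 (adjusted p = 0.00133). Ncf1 was at 10.4 to 16.2 CPM in risk-allele libraries, against 2.43 to 3.77 in Control, a rise of 2.10 ± 0.22 (adjusted p = 0.0002). Gtf2ird2 on the opposite strand shares 11.14% of the exon bases of Ncf1 and was at 8.31 to 9.64 CPM in risk-allele libraries, against 8.71 to 9.42 in Control. The cytosolic partner Ncf4, which is no member and was chosen after its values were seen, rose by 2.60 ± 0.44. Cyba, which many cell types express, was at 335 to 581 CPM in risk-allele libraries, against 478 to 524 in Control, and was not called (log2 difference -0.08 ± 0.17, adjusted p = 0.756); its sign turned under scaling by library totals alone and without G2 replicate 2.

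Ratios within a library compare 1 gene with another without any scaling between libraries, and gene length cancels when the same ratio is set side by side across libraries. They are given as descriptions with no test. The ratio of Ccr2 to Adgre1 CPM was 4.60 and 4.04 in G1 and 1.98 and 1.38 in G2, against 0.975, 1.35 and 0.919 in wild type (single mutant) and 0.807, 1.35 and 0.536 in Control. All 4 risk-allele libraries were above the other 6, and G1 was above G2. G2 replicate 2, at 1.38, lay only just above wild type (single mutant) replicate 2 and Control replicate 2, each at 1.35. The ratio of Lyz2 to Adgre1 was 22.3 and 35.1 in G1 and 25.2 and 24.7 in G2, against 9.36, 10.2 and 7.35 in wild type (single mutant) and 7.12, 8.01 and 9.19 in Control, again with no overlap. Itgax to Adgre1 was 1.07 and 1.35 in G1 and 1.12 and 0.927 in G2, against 0.580, 0.509 and 0.603 in wild type (single mutant) and 0.620, 0.736 and 0.202 in Control. Cx3cr1 to Adgre1 was 3.02 and 1.55 in G1 and 1.91 and 1.78 in G2, against 1.10, 1.05 and 1.04 in wild type (single mutant) and 0.415, 0.906 and 0.655 in Control, with no overlap. For Mrc1, another resident gene set against Adgre1 here, the groups overlapped, at 2.87 and 3.43 in G1 and 1.68 and 1.87 in G2, against 2.02, 2.84 and 0.772 in wild type (single mutant) and 1.01, 0.799 and 1.83 in Control. Cd209a to Adgre1 also overlapped, at 0.407 and 0.576 in G1 and 0.596 and 0.351 in G2, against 0.272, 0.800 and 0.257 in wild type (single mutant) and 0.170, 0.157 and 0.381 in Control. For Xcr1 to Adgre1 the groups overlapped, at 0.160 and 0.130 in G1 and 0.178 and 0.154 in G2, against 0.148, 0.236 and 0.118 in wild type (single mutant) and 0.0994, 0.277 and 0.0952 in Control. Cd163 to Adgre1 was 0.119 and 0.155 in G1 and 0.0426 and 0.157 in G2, against 0.284, 0.836 and 0.0735 in wild type (single mutant) and 0.287, 0.0755 and 0.595 in Control, with risk-allele libraries within or below the range of the others.

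**Figure D3:**
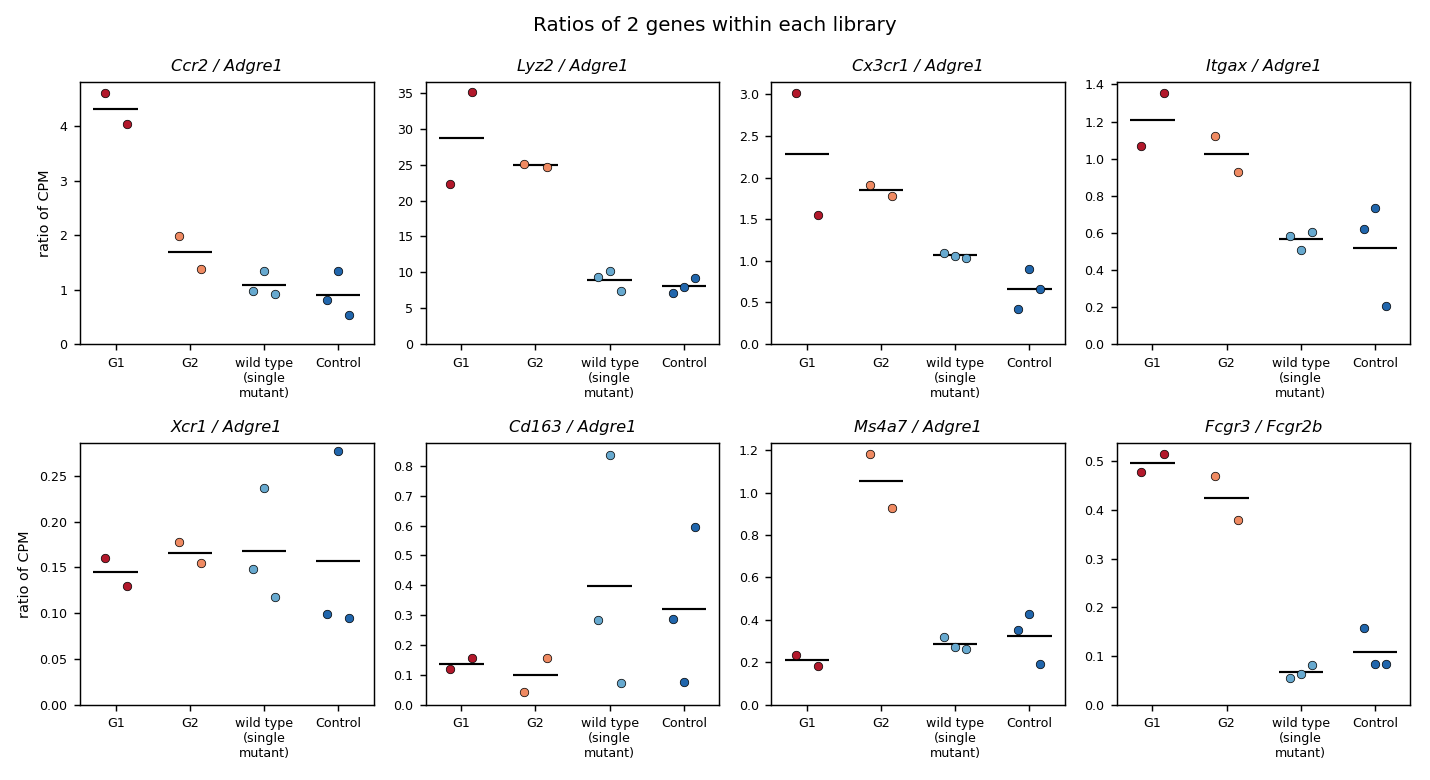
Ratios of the CPM of 2 genes within each library (y axes, linear from 0), with 1 point per library and a bar at the group mean, for G1 and G2 (n = 2 each), wild type (single mutant) and Control (n = 3 each). Ccr2, Lyz2, Cx3cr1 and Itgax stand higher relative to Adgre1 in all 4 risk-allele libraries, Xcr1 and Cd163 overlap, and Ms4a7 stands apart in G2. For Ccr2, the lower G2 library lies close to the highest of the other libraries.

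Each allele was also set against Control, which the 2 comparisons share. In G1, 31 of 39 members were called higher and 0 lower, with 19.5% of all genes called higher, 17.9% lower and a median member of 2.34. In G2, 30 were called higher and 0 lower, with 12.7% of all genes called higher, 8.86% lower and a median of 2.13. In both, 0 members were lower at an unadjusted p under 0.05 or in DESeq2 and limma-voom. The G2 count was 17 without G2 replicate 1. The comparison of G2 with G1 called 1 member higher and 1 lower, with 3.84% of all genes called higher and 2.88% lower. Both G2 libraries lay below both G1 libraries in 11 members and above them in 3 of 39, against 26.7% and 29.2% of all genes.

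Ms4a7 (ENSMUSG00000024672.10, GRCm38 chromosome 19, 11321039 to 11336146), a four-span membrane protein of macrophages, was higher in G2. It was at 20.7 and 11.1 CPM in G2, against 2.83 and 2.39 in G1, with 0.890, 0.548 and 1.23 in wild type (single mutant) and 2.08, 2.46 and 0.637 in Control. G1 lay close to the upper Control libraries, and the log2 difference of G2 over G1 was 2.60 ± 0.58 (adjusted p = 0.0354). Relative to Adgre1 in the same library, Ms4a7 was at 1.18 and 0.927 in G2, against 0.234 and 0.184 in G1. Over Control, Ms4a7 differed by 3.19 ± 0.52 in G2 (adjusted p = 0.00373) and by 0.59 ± 0.52 in G1 (adjusted p = 0.399). The chemokine gene Ccl8, chosen after its values were seen, was at 7.57 and 5.56 CPM in G2, against 0.577 and 1.44 in G1, and was not called between them (log2 difference 2.70 ± 0.71, adjusted p = 0.0549). It was called under DESeq2, limma-voom, no low-count filter and without Control replicate 3 (adjusted p down to 0.00235).

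Lgals3 was lower in G2, at 168 and 122 CPM, against 376 and 323 CPM in G1, and both alleles were above Control. The log2 difference of G2 over G1 was -1.27 ± 0.27 (adjusted p = 0.0317). The calls rested on 2 libraries per allele. That of Lgals3 was lost without G1 replicate 1, G1 replicate 2 or G2 replicate 2, and that of Ms4a7 without either library of G1 or G2, without Control replicate 1 or without wild type (single mutant) replicate 1. Ccr2 was lower in both G2 libraries than in either G1 library but was not called between the alleles (log2 difference -1.08 ± 0.55, adjusted p = 0.262). Chil3, the chitinase-like protein Ym1 of monocytes and activated macrophages, is no member and was chosen after its values were seen. It had 3 counts in the 2 G2 libraries together and 294 in the 2 G1 libraries, a ratio of G1 to G2 of 89.3 with an exact 95% counting interval of 30.3 to 436 that covers counting error only.

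**Figure D4:**
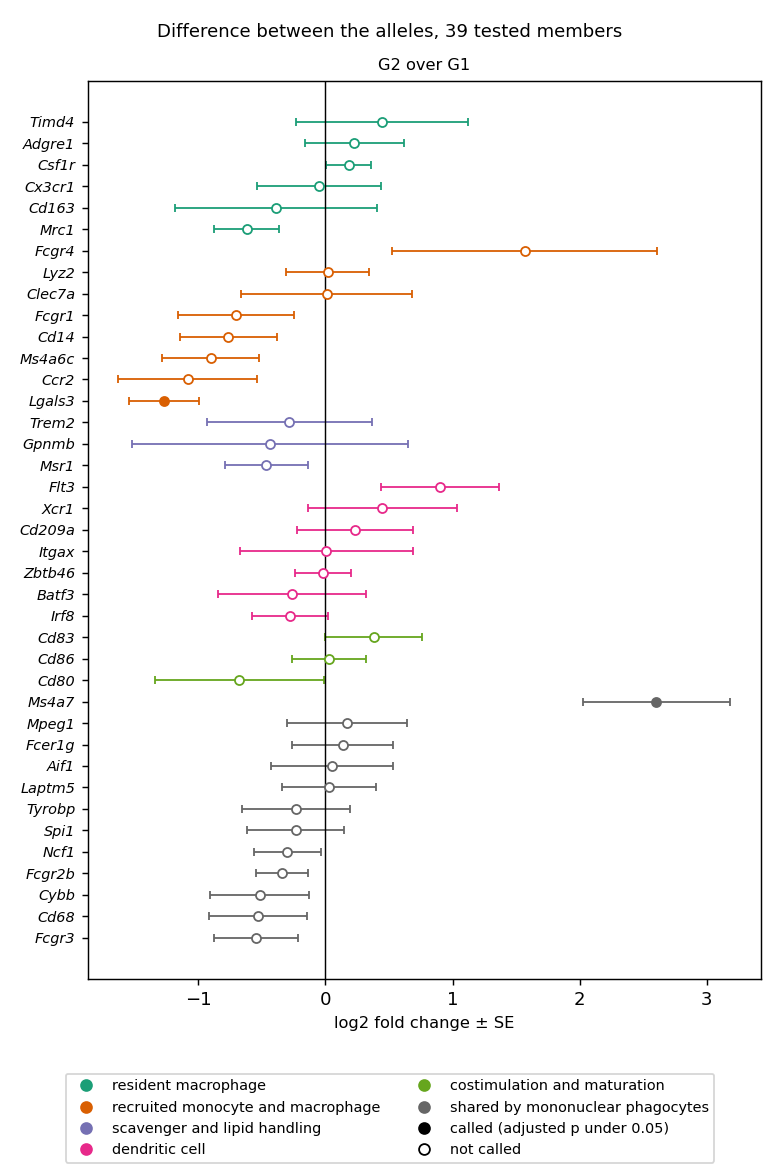
Log2 fold changes of G2 over G1 (x axis, ± SE) for the 39 tested members, coloured by role, with filled points for members called at an adjusted p under 0.05. Ms4a7 at 2.60 and Lgals3 at -1.27 are the filled points, and most other members lie within 1 of 0.

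Between wild type (single mutant) and Control, edgeR called 0 of the 39 members and 0 of all 17823 genes (0%). At an unadjusted p under 0.05, 4 members were lower, 0 were higher, and 4.06% of all genes passed in either direction. DESeq2 and limma-voom called 0 members. The members with unadjusted p under 0.05 were Timd4, Trem2, Gpnmb and Ncf1, at log2 differences of -1.68 ± 0.65, -1.60 ± 0.64, -3.03 ± 1.05 and -0.83 ± 0.23. The median member differed by -0.56, against 0.004 for all genes tested, and 5 of the 39 members had positive fold changes.

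Further genes of the same pathways were counted from lists that hold no member. Of 13 tested genes for macrophage growth factors, chemokines and their receptors, 12 were called higher over Control and the other was not called (median 2.24). Csf1, the ligand of CSF1R, was at 76.2 and 103 CPM in G1 and 53.7 and 39.7 in G2, against 9.75, 8.33 and 11.1 in wild type (single mutant) and 10.9, 12.1 and 10.1 in Control, a rise of 2.55 ± 0.17 (adjusted p = 4.86e-05). Ccl2, the ligand of CCR2, was at 51.3 and 55.4 CPM in G1 and 35.3 and 21.98 in G2, against 0.342, 0.511 and 0.784 in wild type (single mutant) and 1.67, 0.869 and 0.676 in Control, a rise of 5.17 ± 0.37 (adjusted p = 6.25e-05). Ccr1, a receptor for CCL3 and related chemokines, rose by 3.35 ± 0.32 (adjusted p = 0.000145). Both ligands were separated between the risk-allele and the other libraries. Ccl8 was the tested gene of this list not called.

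Of 26 other macrophage genes tested, 15 were higher over Control and 2 lower. Axl, a receptor for the clearance of dying cells, rose by 1.94 ± 0.14 (adjusted p = 7.02e-05), Plac8 by 2.77 ± 0.23 (adjusted p = 8.67e-05) and Spp1, the secreted protein osteopontin that tubules also make in quantity, by 4.12 ± 0.36 (adjusted p = 0.00011). Among the lower was Mertk, a second receptor for dying cells, at -0.49 ± 0.16 (adjusted p = 0.0358). The Mertk call was lost under 6 of 16 other settings, among them scaling by library totals alone. Of 18 other dendritic cell genes, 11 were higher and 1 lower. Ccl17, a chemokine of dendritic cells that attracts T cells, was at 4.46 and 7.66 CPM in G1 and 6.43 and 2.39 in G2, against 0.274, 0.365 and 0.136 in wild type (single mutant) and 0.0694, 0.254 and 0.358 in Control, a rise of 4.51 ± 0.60 (adjusted p = 0.000644). Naaa, a lysosomal amidase, rose by 1.62 ± 0.23 (adjusted p = 0.000901), and Kmo, an enzyme of tryptophan breakdown that tubules also express, fell by 1.51 ± 0.11 (adjusted p = 6.24e-05). Of 18 receptor partners and signalling genes, 16 were higher, with Card9, Inpp5d and Lyn at 1.83 ± 0.21, 1.39 ± 0.19 and 0.87 ± 0.13, and Cyba and Plcg2 not called.

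**Figure D5:**
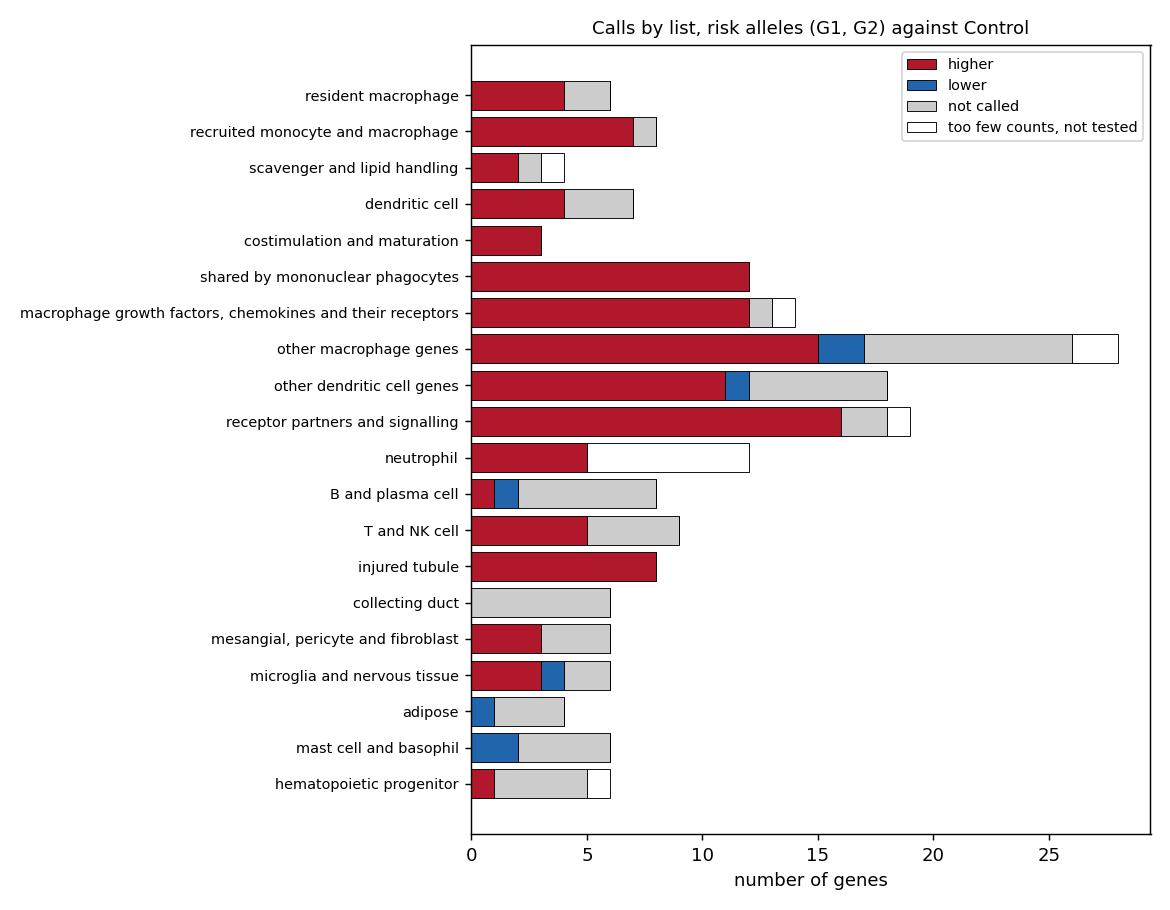
Number of genes (x axis) of each list called higher, lower or not called in risk-allele libraries over Control, and those with too few counts to test. Member roles fill the first 6 rows, and the injured tubule list is called higher in 8 of 8.

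Genes of other cells moved in the same libraries, and their part in the members' values was not tested. Injured tubule genes were called higher in 8 of 8, with a summed level of 4746 to 29625 CPM in risk-allele libraries, against 704 to 1180.3 in Control. They included Lcn2 (6.26 ± 0.34), Vcam1 (4.58 ± 0.34) and Havcr1 (6.01 ± 0.47). Spp1 stands in this list and among the other macrophage genes. T and NK cell genes were higher in 5 of 9. They summed to 13.8 to 34.5 CPM in risk-allele libraries, against 7.70 to 13.9 in Control and 8.25 to 17.0 in wild type (single mutant). Among them were Cd8b1 at 3.26 ± 0.40, Cd4, which macrophages can also express, at 2.26 ± 0.35 and Cd3d at 1.995 ± 0.41. Fibroblast and mesangial genes were higher in 3 of 6, summing to 404 to 1233 CPM in risk-allele libraries, against 192 to 297 in Control, with Col1a1 at 2.98 ± 0.29, Col3a1 at 2.35 ± 0.31 and Pdgfrb at 1.13 ± 0.24. By allele, G1 had Col1a1 and Col3a1 called higher over Control and Dcn and Lum lower, while G2 had Pdgfrb, Col1a1 and Col3a1 higher and none lower; between G2 and G1, Dcn and Lum were called higher in G2.

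Of the 12 neutrophil genes, 5 were tested and 5 called higher, a count that fell to 1 without Control replicate 1 or G1 replicate 2 and to 2 without Control replicate 3, with the 12 summing to 5.74 to 9.52 CPM in risk-allele libraries, against 1.49 to 3.22 in Control. Csf3r and Mmp9 differed by 1.85 ± 0.31 and 1.60 ± 0.45, and Mmp8 was at 0.0997 to 0.378 CPM in risk-allele libraries, against 0 to 0.0724 in Control. The defining genes Ly6g, Elane, Mpo, Camp and Ngp were at or near 0 in all 10 libraries, with at most 0.277 CPM for Ly6g. The Mmp9 call was lost without Control replicate 1 or G1 replicate 2, and the Mmp8 call under DESeq2 and 5 leave-out settings. Of 8 B and plasma cell genes, Sdc1, which epithelium also expresses, rose by 1.79 ± 0.13 and Jchain fell by 3.59 ± 1.07, a call lost without Control replicate 2, either G1 library or G2 replicate 2. Cd79a was not called (-1.82 ± 0.68, adjusted p = 0.0625), but was called lower under 5 of 16 other settings, among them DESeq2 (adjusted p down to 0.0286). The list summed to 52.7 to 72.2 CPM in risk-allele libraries, against 52.5 to 145 in Control. Of 6 mast cell genes, Mcpt4 and Cma1 were lower, at 0 to 0.0249 and 0 to 0.0262 CPM in risk-allele libraries, against 0.109 to 0.590 and 0.145 to 0.347 in Control, and Cpa3 was not called. That list summed to 16.7 to 17.9 CPM in risk-allele libraries, against 18.5 to 22.6 in Control, most of it Kit, which other kidney cells express.

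Adipose genes varied by library, summing to 1.79 to 69.4 CPM in risk-allele libraries, against 1.99 to 175 in Control. Lep was lower in risk-allele libraries (-4.90 ± 1.19, adjusted p = 0.0116, 0.0717 in limma-voom), while Plin1 and Adipoq were not called. Microglial and nervous tissue genes were called higher in 3 of 6, among them P2ry12 (1.90 ± 0.38) and Tmem119 (0.97 ± 0.24), and lower in 1. Of the hematopoietic progenitor genes, Cd34, which endothelium also expresses, was higher (0.51 ± 0.13, a call lost without Control replicate 2), and Meis1 and Kit were not called. They summed to 117 to 216 CPM in risk-allele libraries, against 130.5 to 145 in Control. Of 6 collecting duct genes 0 were called by edgeR, with Aqp3, Hsd11b2 and Scnn1g at -0.82 ± 0.30, -0.40 ± 0.20 and -0.46 ± 0.24. At an unadjusted p under 0.05, 1 of them passed, and DESeq2 and limma-voom called 1 each. In G1 alone, Aqp3 and Hsd11b2 were called lower over Control, and in G2 alone none was called by edgeR, with 1 at an unadjusted p under 0.05. Their summed level was 344 to 1757 CPM in risk-allele libraries, against 897 to 1133 in Control.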

How the data were processed

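The deposited values are raw read counts per gene, 1 table per library, with no normalization. The submitters' processing notes list STAR 2.4.1d, HTSeq 0.6.1, Trim Galore, FastQC and CASAVA 1.8.2, and name GRCm38 as build; the strand setting is not given in the sources used here. For RNA extraction the labels name the miRNeasy kit in the protocol of every library and RNeasy Mini in the series' design text. Of 46517 IDs, 46005 matched a symbol in GENCODE M21. The members and lists were chosen with earlier results of these data known. Per-library values are given for the defining genes of each role, members not called against Control and members called between alleles; of each further list, the 3 tested genes with the lowest p and those that moved against the list, some of which are not reported here.

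edgeR 4.0.16 (R 4.3.3) fitted all 10 libraries with TMM scaling, filterByExpr (minimum count 10) and 1 mean per group; 17823 genes were tested, and calls use a Benjamini-Hochberg adjusted p under 0.05. The fit was tried on simulated counts with few changed genes, split evenly between higher and lower. Far more genes were called in the data, so that trial does not test the scaling used here. Alternatives were DESeq2 1.42.0, limma-voom (limma 3.58.1), RLE size factors, library totals, no filter, only the groups compared and each library left out. Python 3.11.15 made the tables. Over the 45 pairs of libraries, chi-square per gene was at least 26.2, far above sampling noise. Depth ran from 27596391 to 34815153 counts; intervals and floors cover counting error only.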

Additional observations from a re-analysis of the deposited data

Results flagged for a closer look

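The alleles differed from each other, by the test of G2 against G1 itself, in 2 members and in 10 named genes of the further lists. The members' share, 1 higher and 1 lower of 39, is near that of all genes (3.84% higher, 2.88% lower). The members were Ms4a7 (2.60) and Lgals3 (-1.27), with levels given above. Csf1 was at 53.7 and 39.7 CPM in G2, against 76.2 and 103 in G1 (log2 difference -0.94, adjusted p = 0.0317). Ccr1 was at 4.16 and 3.86 CPM in G2, against 13.1 and 11.8 in G1 (log2 difference -1.64, adjusted p = 0.0334). Plac8 was at 53.7 and 49.6 CPM in G2, against 101 and 117 in G1 (log2 difference -1.08, adjusted p = 0.0475). Spp1 was at 6925 and 3419 CPM in G2, against 17622 and 26086 in G1 (log2 difference -2.08, adjusted p = 0.0263). Vcam1 was at 248 and 148 CPM in G2, against 643 and 491 in G1 (log2 difference -1.52, adjusted p = 0.0471). Chil3 was at 0.0974 and 0 CPM in G2, against 3.75 and 3.80 in G1 (log2 difference -6.31, adjusted p = 0.0127), a fitted value that rests on 3 counts in G2. Higher in G2 were Ccr7, the receptor that guides mature dendritic cells to lymph nodes, at 2.79 and 1.84 CPM in G2, against 0.393 and 0.605 in G1 (log2 difference 2.20, adjusted p = 0.0197), and Tmem119, at 34.7 and 33.96 CPM in G2, against 10.4 and 8.97 in G1 (log2 difference 1.83, adjusted p = 0.0178). The fibroblast matrix gene Dcn was at 96.2 and 84.3 CPM in G2, against 47.8 and 30.4 in G1 (log2 difference 1.21, adjusted p = 0.0273), and Lum at 11.4 and 8.07 CPM in G2, against 3.96 and 2.32 in G1 (log2 difference 1.63, adjusted p = 0.0243). Each of these calls was lost when at least 1 of the 4 risk-allele libraries was left out, and those of Plac8 and Vcam1 each without any 1 of 8 libraries. The calls of Csf1, Ccr7, Dcn, Lum, Spp1 and Vcam1 were also lost in a fit of only the groups compared. Chil3, Ccr7, Dcn and Lum were chosen after their values were seen. With 2 or 3 libraries in a group, no library could be tested as an outlier.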

How the results depend on the processing

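Over the tools, scalings and filters tried, the number of members called higher over Control was 32 to 35, and leaving out 1 library gave 31 to 33; 0 were called lower in all of them. Over wild type (single mutant) it was 34 to 36, and 30 to 36 with 1 library left out. For G2 over Control it was 30, and 17 to 33 with 1 library left out, the lowest without G2 replicate 1. For G2 over G1 the counts of 1 higher and 1 lower were each 0 to 1 with 1 library left out. Leaving out a G1 or G2 library leaves 1 sample, assumed to vary like the other groups. Differences over Control that were not called changed sign in Cd163 (-0.29 to 0.49 with 1 library left out), Timd4 (-0.82 to 0.05) and Fcgr4 (-0.26 to 1.93). Cyba (-0.31 to 0.11) did so too, and was 0.19 under library totals alone, where Kit was 0.11, Dcn 0.07 and Lum 0.05; that scaling shifted the median of all genes to 0.28 and split their calls 6037 higher to 1600 lower, against 3441 to 3212 with TMM. The cause of these changes was not tested. Scaling by library totals also called 7 of 7 dendritic cell genes higher over Control, against 4 of 7. No paired analysis was possible because the labels give no replicate numbers that groups share. Genes under about 1 CPM, such as Marco, Timd4 and Cd80, rest on few counts per library.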
